A study of Homo sapiens with 4 samples.

Results

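The 10 genes studied here mark epithelial or mesenchymal identity, and their levels were read in HGC-27 cells, a human line from an undifferentiated gastric cancer. They were found by symbol after the Ensembl identifiers of the table had been matched to names, and all of them were found, 10 of 62443 genes in the table. The epithelial genes were KRT8, KRT18 and KRT19, which encode keratins of simple epithelia, CDH1, which encodes E-cadherin, and EPCAM, which encodes an epithelial cell adhesion molecule. The mesenchymal genes were VIM, which encodes vimentin, CDH2, which encodes N-cadherin, FN1, which encodes fibronectin, and ZEB1 and SNAI2, which encode transcription factors that repress epithelial genes.

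The study asked how forcing the transcription factor TEAD4 into repressive condensates with a peptide changes tumor cells. The cells were either left as control or given GLUP, a synthetic cyclic peptide built from the TEAD4-binding motif of VGLL4, a cofactor of TEAD proteins. By the study's methods, a stocking buffer of HEPES and NaCl served as the negative control and treated cells received 10 μg/ml GLUP. The treatment time is given as 48 h in one place of the study's text and as 12 h in another. The labels of the libraries name neither dose nor time. Each group had 2 RNA-seq libraries, and all 4 came from the one cell line, with no genetic change named in the labels, which give the control treatment as none. The values below are FPKM (fragments per kilobase of transcript, scaled to the mapped fragments of a library), a unit that corrects for gene length, so genes can be set side by side within a library.

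Epithelial cells are held together by E-cadherin junctions and carry keratin filaments, whereas mesenchymal cells carry vimentin filaments, deposit fibronectin and tend to use N-cadherin. ZEB1 and SNAI2 bind E-box motifs in the CDH1 promoter and lower its transcription, and cells can pass between the states during development, wound repair and tumor spread. In gastric tumors, loss of E-cadherin is a known feature of diffuse and undifferentiated growth.

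The 4 libraries differed before any gene was singled out. The GLUP libraries correlated with each other with Pearson's r = 0.986 across genes, and the control libraries with r = 0.933, whereas control replicate 2 correlated with the GLUP libraries with r = 0.873 and 0.886 and control replicate 1 with r = 0.952 and 0.957. The deposited values summed to between 909735 and 949919 FPKM per library, and the depth behind them is unknown. Of 7588 genes tested, the median log2 fold change was -0.36, so more genes were lower than higher with GLUP. The change also followed base composition: Spearman's rho between the log2 fold change and the GC content of the longest transcript was 0.58 across 7570 genes, and between the 2 control libraries (replicate 2 minus replicate 1) it was -0.42. Genes are not independent replicates, so no p is attached to these values. Values were therefore also computed with every library centred on its median and with the GC trend removed.

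With 2 libraries against 2, a permutation test of one gene cannot go below a two-sided p of 0.333. A limma fit across all genes tested was used instead, on log2(FPKM + 1). A gene was called where the unadjusted p was under 0.05 and the fold change over 2; by this rule 1457 of 7588 genes (19.2%) were called, 1103 lower (14.5%) and 354 higher (4.67%). With the libraries centred on their medians the split turned to 428 lower and 796 higher. After Benjamini-Hochberg adjustment only 2 of 7588 genes (0.0264%) passed, none of them among the 10. The p-values measure the spread between these libraries alone.

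Since ZEB1 and SNAI2 bind promoters, the windows that RefSeq gives for the 10 genes (build GRCh38.p14, 250 bases before each transcript start) were searched for their E-box, CAGGTG or its reverse complement CACCTG, and for the TEAD motif GGAATG or CATTCC. Both searches covered both strands. RefSeq windows were matched for 5 of the 10 genes (FN1, VIM, ZEB1, KRT8 and CDH2), 12 windows in all, 7 of them for ZEB1. The E-box stood in 2 of the 12 windows, both of ZEB1, against 17.5% of 35116 windows of all genes. The TEAD motif stood in 0 of the 12, against 11.9% of all windows. The 2 windows shown are the most upstream one of ZEB1, at chr10:31318167-31318416 on the plus strand, and that of VIM, at chr10:17227991-17228240 on the plus strand. ZEB1 had the largest log2 fold change, in size, among those of the 10 genes that were tested, and VIM was the most abundant of the 10. Capitals mark the E-box, which begins 57 bases before the ZEB1 start and is not in the VIM window.
ZEB1: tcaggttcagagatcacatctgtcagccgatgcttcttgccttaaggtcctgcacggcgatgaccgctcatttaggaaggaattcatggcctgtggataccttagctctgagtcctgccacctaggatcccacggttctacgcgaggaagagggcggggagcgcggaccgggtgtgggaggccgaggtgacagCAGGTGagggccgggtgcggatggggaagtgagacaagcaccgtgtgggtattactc
VIM: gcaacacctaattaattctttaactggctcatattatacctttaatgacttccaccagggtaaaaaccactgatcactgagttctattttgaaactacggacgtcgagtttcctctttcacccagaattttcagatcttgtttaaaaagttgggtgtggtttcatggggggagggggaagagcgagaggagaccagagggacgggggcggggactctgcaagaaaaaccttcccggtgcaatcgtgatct
A match is a description of these letters and not a bound site. The ZEB1 window also lies within the antisense transcript ZEB1-AS1.

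In the control libraries the mesenchymal filament gene VIM stood far above every epithelial gene. VIM (ENSG00000026025) was at 336 FPKM in control replicate 1 and 387 FPKM in replicate 2, above 98.5% and 98.7% of the genes with a value above 0 in those libraries. The keratins were close to 1 FPKM: KRT8 was at 1.05 and 1.49, KRT18 at 0.957 and 1.00 and KRT19 at 0.764 and 1.05. Summed, the 3 keratins reached 2.77 and 3.55 FPKM, and VIM exceeded that sum 121-fold and 109-fold, a ratio chosen after the values had been seen.

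The epithelial adhesion genes were near the bottom of the range. CDH1 was at 0.0687 and 0.0799 FPKM and EPCAM at 0.124 and 0.0766 FPKM in control replicates 1 and 2, where at most 26.7% of the genes above 0 had a lower value. The mesenchymal cadherin was as low: CDH2 was at 0.0508 and 0.00616 FPKM, so neither classical cadherin of the 10 was well expressed. All 3 genes missed the filter of a mean of at least 1 FPKM, and 7 of the 10 passed it.

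The control order of mean levels was VIM, ZEB1, SNAI2, FN1, KRT8, KRT18, KRT19, EPCAM, CDH1 and CDH2. VIM and ZEB1, KRT8 and KRT18, KRT19 and EPCAM, and CDH1 and CDH2 had ranges over the control libraries that did not overlap. The other neighbours (ZEB1 and SNAI2, SNAI2 and FN1, FN1 and KRT8, KRT18 and KRT19, and EPCAM and CDH1) overlapped. The middle of this order was therefore not resolved by the 2 libraries.

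Markers of other cells were read beside these levels. Of 6 gastric glandular markers (MUC5AC, MUC6, TFF1, TFF2, GKN1 and CLDN18), which mark differentiated stomach epithelium, 4 were listed at 0 in every library and the 6 summed to at most 0.0630 FPKM, so markers of the labelled tissue were absent or close to 0. Of 6 fibroblast markers all were above 0, and they summed to 119 to 125 FPKM in every library, led by LUM, which encodes the matrix proteoglycan lumican, at 75.3 and 59.0 FPKM in control and 70.1 and 76.7 FPKM with GLUP. COL1A1, COL1A2, COL3A1 and PDGFRB of that list are also expressed by mesenchymal tumor cells and stand in other lists here. LUM and DCN stand in no other list. DCN was at 26.5 and 41.3 FPKM in control and at 20.1 and 22.3 FPKM with GLUP. The 6 leukocyte markers summed to between 0.528 and 1.52 FPKM, with 2 at 0 in all libraries, and the 3 matched endothelial markers reached at most 0.00591 FPKM.

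**Figure D1:**
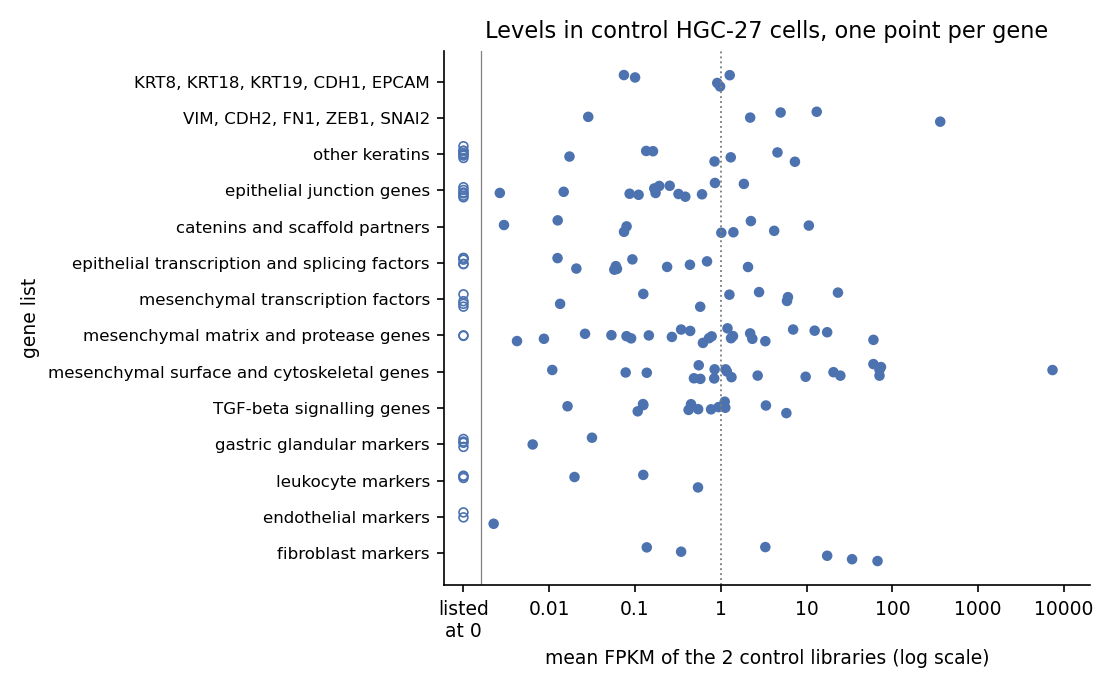
Levels in the control libraries by gene list, with each point one gene (mean of the 2 control libraries, FPKM, log scale). Open circles are genes listed at 0, the dotted line is 1 FPKM, and VIM at a mean of 361 FPKM is the highest of the 10 genes.

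With GLUP the keratin genes KRT8, KRT18 and KRT19 were higher and ZEB1 and FN1 lower, while VIM and SNAI2 overlapped between the groups. Of the 7 genes tested, 1 was called (14.3%, against 19.2% of all genes tested), and that was ZEB1, lower with GLUP. None passed the adjusted test, and the smallest adjusted p among them, from limma with Benjamini-Hochberg adjustment, was 0.104. Both GLUP libraries stood above both control libraries for 3 of the 7, against 17.5% of all genes tested. They stood below both for 2 of the 7, against 49.7%. KRT18 and KRT19 had control means of 0.981 and 0.909 FPKM and passed the filter only through their higher GLUP values. FN1 had a GLUP mean of 0.663 FPKM and passed it only through control. The counts above and the medians that follow therefore depend in part on the filter. The 3 epithelial genes tested (KRT8, KRT18 and KRT19) had a median log2 fold change of 0.51, which was 0.87 above the median of all genes. The other 2 epithelial genes, CDH1 and EPCAM, missed the filter and went the other way, lower in both GLUP libraries. The median is therefore one of these 3 keratins and not of all epithelial genes here. Of 14 other keratins 2 were tested, KRT7 and KRT10, and both were lower in both GLUP libraries than in either control library. The 4 mesenchymal genes tested had a median of -0.53, which was -0.18 relative to the median of all genes. In bulk RNA, fewer cells of one kind and less RNA per cell cannot be told apart.

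Gene positions are those of GENCODE release 44 lifted to GRCh37, the annotation whose identifier form the table carries, whereas the submitters' processing notes name GRCh38.p10. KRT8 (ENSG00000170421, chromosome 12, 53290971 to 53343738, minus strand), which encodes the type II keratin of simple epithelia, was at 1.05 and 1.49 FPKM in control and at 2.25 and 2.19 FPKM with GLUP. Both GLUP libraries were above both control libraries. Its mean was 1.27 ± 0.308 (SD, n = 2) in control and 2.22 ± 0.0428 (SD, n = 2) with GLUP, a ratio of 1.75. The log2 fold change was 0.51 with a standard error of 0.25 and did not pass the test.

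KRT18 (ENSG00000111057, chromosome 12, 53342655 to 53346690, plus strand), the type I partner with which keratin 8 forms filaments, was at 0.957 and 1.00 FPKM in control and at 2.25 and 1.64 FPKM with GLUP. The groups did not overlap, and the means were 0.981 ± 0.0330 and 1.95 ± 0.430 FPKM (SD, n = 2 each). Its log2 fold change was 0.57 (standard error 0.24). The adjusted p-values of KRT8 and KRT18 in limma were 0.207 and 0.174.

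KRT19 (ENSG00000171345, chromosome 17, 39679869 to 39684560, minus strand), a type I keratin of simple and glandular epithelia, was at 0.764 and 1.05 FPKM in control and at 1.32 and 1.34 FPKM with GLUP. The groups did not overlap here either, and the means were 0.909 ± 0.206 and 1.33 ± 0.0161 FPKM (SD, n = 2 each). The log2 fold change of 0.29 (standard error 0.23) became -0.24 with the GC trend removed, while that of KRT8 became 0.21 and that of KRT18 0.30.

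The 3 keratins shared a trait that was not used to choose them: their longest transcripts were 56.2%, 55.7% and 61.8% GC, all within the top 20% of genes tested by GC content. In that range, 47.3% of 1514 genes had both GLUP libraries above both control libraries and the median log2 fold change was 0.44, and 16.1% were called higher. The part of base composition in the higher keratin values was not tested beyond removing the trend.

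KRT8 and KRT18 also overlap each other on opposite strands, and the sources do not say that counting used strand. Both have many processed copies in the genome: 51 named KRT8 pseudogenes summed to 0.824 and 1.17 FPKM in control and 1.61 and 1.35 FPKM with GLUP, and 67 named KRT18 pseudogenes to 1.00, 0.544, 0.846 and 1.27 FPKM in the same order. Those sums are of the size of the parent genes, so the values of KRT8 and KRT18 are uncertain. None of the 5 KRT19 copies was above 0.

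CDH1 (ENSG00000039068, chromosome 16, 68771195 to 68869440, plus strand) was listed at 0 in both GLUP libraries, and EPCAM (ENSG00000119888, chromosome 2, 47572297 to 47614740, plus strand) was at 0.0451 FPKM in GLUP replicate 1 and listed at 0 in replicate 2. CDH2 (ENSG00000170558, chromosome 18, 25512843 to 25757910, minus strand) was listed at 0 in both GLUP libraries. A value of 0 without counts can also be a failed estimate, and no fold change is given against it. In a fit over all 28873 genes above 0 in any library, 1293 genes (4.48%) were called. These 3 genes, at 0.124 FPKM or below, could not reach a 2-fold change on log2(FPKM + 1), so the fold rule could not call them. Their unadjusted p in limma was 0.0167 (CDH1), 0.0839 (EPCAM) and 0.237 (CDH2), and the adjusted p was 0.333, 0.452 and 0.575. Each was lower in FPKM in both GLUP libraries than in either control library, as were 49.7% of the 7588 genes tested. That share was not computed for genes under the filter.

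VIM (chromosome 10, 17270240 to 17279592, plus strand) was at 336 and 387 FPKM in control and at 336 and 293 FPKM with GLUP. The groups overlapped, with GLUP replicate 1 level with control replicate 1. The means were 361 ± 36.5 and 315 ± 30.2 FPKM (SD, n = 2 each). The log2 fold change was -0.20 (standard error 0.31, adjusted p = 0.661 by limma), and it became 0.14 after centring and 0.17 with the GC trend removed, so its direction was not fixed.

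FN1 (ENSG00000115414, chromosome 2, 216225163 to 216300796, minus strand) was at 1.15 and 3.25 FPKM in control and at 0.655 and 0.671 FPKM with GLUP. Both GLUP libraries were below both control libraries, and control replicate 2 was well above control replicate 1, with means of 2.20 ± 1.49 and 0.663 ± 0.0113 FPKM (SD, n = 2 each). The log2 fold change was -0.86 (standard error 0.37), -0.37 without control replicate 2 and -1.35 without control replicate 1, where it was called. It became -0.23 with the GC trend removed.

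ZEB1 (ENSG00000148516, chromosome 10, 31607424 to 31818742, plus strand) showed the largest difference among the 7. It was at 7.05 FPKM in control replicate 1 and 19.2 FPKM in control replicate 2, and at 2.88 and 2.92 FPKM with GLUP. The groups did not overlap, and the GLUP libraries lay close together while the control libraries were far apart, with means of 13.1 ± 8.59 and 2.90 ± 0.0238 FPKM (SD, n = 2 each). The ratio of means was 0.221, and the log2 fold change was -1.71 with a standard error of 0.48. The unadjusted p from limma was 0.0126 and the adjusted p 0.104. Without control replicate 1 the log2 fold change was -2.37 and without control replicate 2 it was -1.05. With the GC trend removed it was -0.95 and ZEB1 was no longer called.

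ZEB1 transcripts were 38.4% GC, in the lowest 20% by GC content, where the median log2 fold change of 1514 genes was -0.78, 80.4% of genes had both GLUP libraries below both control libraries and 30.0% were called lower. The antisense gene ZEB1-AS1, which starts beside ZEB1 on the opposite strand, was at 3.18 and 3.80 FPKM in control and at 1.58 and 1.13 FPKM with GLUP, with a log2 fold change of -0.93. Where ZEB1 and ZEB1-AS1 overlap, their reads could not be told apart without strand, and the sources do not say whether strand was used.

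SNAI2 (ENSG00000019549, chromosome 8, 49830157 to 49834299, minus strand), the other repressor, was at 7.37 and 2.59 FPKM in control and at 5.92 and 6.51 FPKM with GLUP. The groups overlapped, and the means were 4.98 ± 3.38 and 6.22 ± 0.411 FPKM (SD, n = 2 each). The log2 fold change was 0.39 (standard error 0.45, adjusted p = 0.554 by limma). Without control replicate 2 it was -0.22 and without control replicate 1 it was 1.01, where it was called, so its direction depended on which control library was kept. It was also called, at 1.06, in a fit blocked by replicate number after GC correction.

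**Figure D2:**
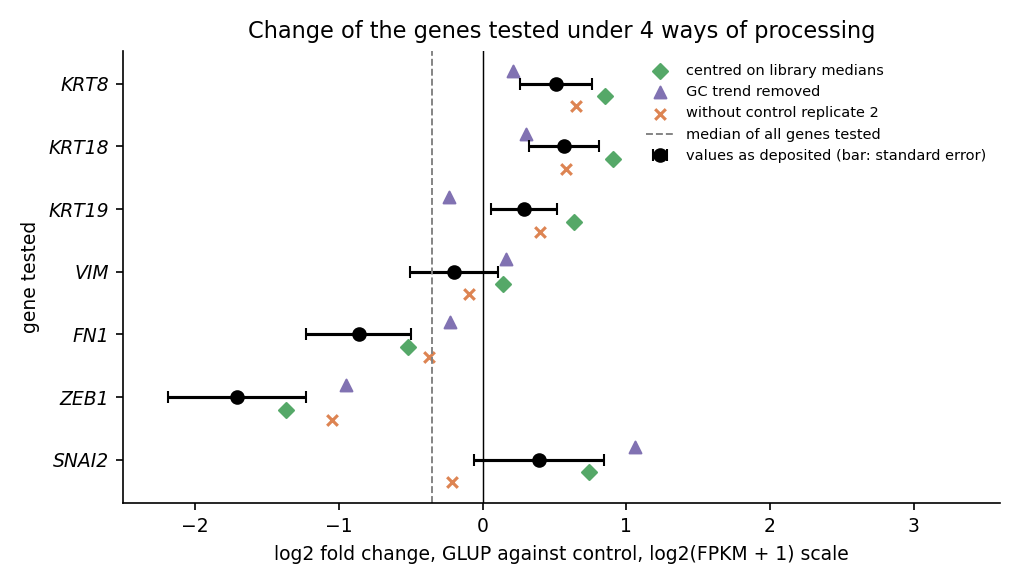
Log2 fold change of the 7 genes tested (GLUP against control, log2(FPKM + 1) scale) with its standard error (black), after centring on library medians (diamonds), with the GC trend removed (triangles) and without control replicate 2 (crosses); the dashed line is the median of all genes tested. ZEB1 lies below 0 in each of the 4, between -1.71 and -0.95, and VIM, KRT19 and SNAI2 change sign in some.

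Ratios within a library, likewise chosen afterwards, set these genes against each other free of the library's scale. ZEB1 over SNAI2 was 0.957 in control replicate 1 and 7.41 in control replicate 2, and 0.487 and 0.448 with GLUP. Both GLUP ratios were below both control ratios, with an exact two-sided permutation p of 0.333, the smallest that 2 against 2 libraries allow. VIM over the 3 keratins was 121 and 109 in control and 57.7 and 56.7 with GLUP, a difference of -1.01 on the log2 scale with the same exact permutation p of 0.333. VIM was 46.9% GC and the keratins 55.7% to 61.8%, and the part of that difference in the ratio was not tested.

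**Figure D3:**
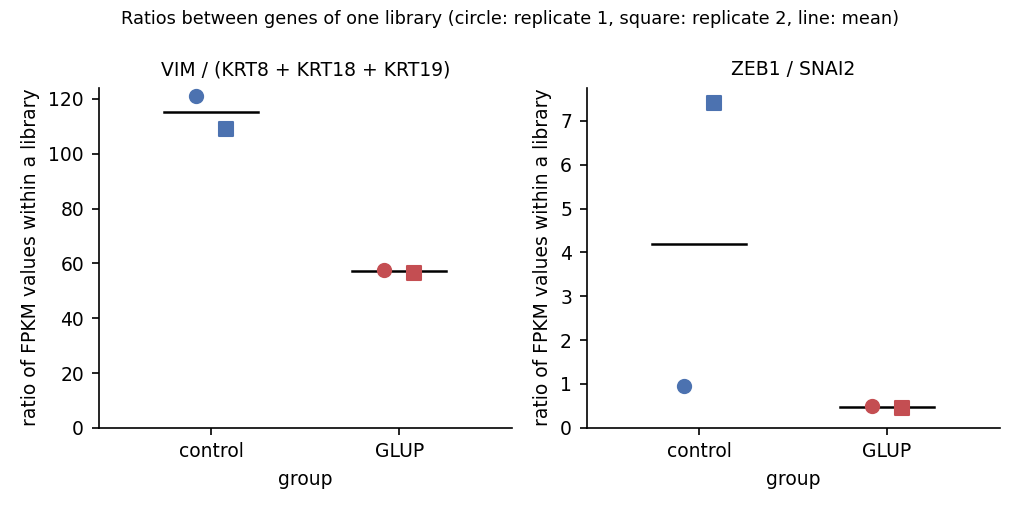
Ratios between genes within each library (y axis, from 0), circles for replicate 1, squares for replicate 2 and a line for the mean of each group. VIM over the keratins was 109 to 121 in control and 56.7 to 57.7 with GLUP, and ZEB1 over SNAI2 was 0.448 to 0.487 with GLUP and 0.957 and 7.41 in control.

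Genes with a like pattern were sought by Pearson's r over the 4 libraries, a coarse measure. For KRT8, the most abundant epithelial gene of the 10 by its mean over the libraries, MTRNR2L10, RPL39 and MTCO3P12 ranked first with r of 1.00, 0.999 and 0.998, and 12 of 7587 genes reached 0.99. For VIM, the most abundant mesenchymal gene of the 10, ZNF345, ZNF644 and ZNF493 ranked first, each at 0.999, and 40 genes reached 0.99.

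Other genes of the same programs were taken from lists chosen with earlier results known. Calls in each list are to be read beside the shares of all genes tested, 14.5% called lower and 4.67% called higher. Of 14 other keratins 2 were tested, and KRT10, a keratin of stratified epithelia, was called lower at 2.96 and 6.20 FPKM in control against 2.00 and 0.644 with GLUP. Its log2 difference of -1.26 was under 2-fold after centring (-0.92) and without control replicate 2 (-0.83). KRT7, a keratin of glandular epithelia, was the most abundant of the list at 6.85 and 7.78 FPKM in control and 5.24 and 6.03 FPKM with GLUP. Of 19 epithelial junction genes 3 were tested and none was called, with a median log2 fold change of 0.27. Leaving out control replicate 2 gave -0.073 and leaving out control replicate 1 gave 0.62. CLDN7 and MUC1 of these 3 had control means of 0.855 and 0.604 FPKM and passed the filter only through their higher GLUP values. The median of this list therefore depends in part on the filter. Of 9 catenins and scaffold partners 4 were tested and none was called. CTNNB1, which encodes beta-catenin, was at 0.678 and 7.71 FPKM in control, so its control libraries differed more than the groups did. Of 15 epithelial transcription and splicing factors only KLF5 reached the filter, at 1.39 and 2.77 FPKM in control and 0.503 and 1.01 FPKM with GLUP.

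Of 12 mesenchymal transcription factors 4 were tested and none was called. TWIST1, which promotes mesenchymal traits, was at 9.94 and 36.5 FPKM in control and at 9.68 and 8.94 FPKM with GLUP. Its log2 difference of -0.97 (adjusted p = 0.288 by limma) became -0.09 without control replicate 2. Of 25 matrix and protease genes 9 were tested and 1 was called lower, against 14.5% of all genes tested. That gene was POSTN, which encodes periostin, at 10.9 and 13.9 FPKM in control against 5.89 and 4.46 FPKM with GLUP. Its log2 difference of -1.12 was under 2-fold after centring (-0.78), with the GC trend removed (-0.37) and without control replicate 2 (-0.96). Of 13 TGF-beta signalling genes 3 were tested (LTBP1, SMAD2 and TGFB3) and none was called. Their median log2 fold change was -0.27 against -0.36 for all genes. After centring, LTBP1 was at 0.08, TGFB3 at 0.21 and SMAD2 at -0.46. With the GC trend removed, LTBP1 was at -0.20, TGFB3 at -0.11 and SMAD2 at -0.10.

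Of 20 surface and cytoskeletal genes 12 were tested, with 1 called higher and 2 called lower. Of all genes tested, 4.67% were called higher and 14.5% lower. S100A4, a calcium-binding protein linked to cell motility, was at 67.1 and 74.5 FPKM in control and at 190 and 230 FPKM with GLUP; the fitted log2 difference was 1.55 with a standard error of 0.32. AXL, a receptor tyrosine kinase, was at 19.3 and 21.9 FPKM in control and at 6.35 and 5.74 FPKM with GLUP, and its fitted log2 difference was -1.61 with a standard error of 0.30. CNN3, which encodes the actin-binding protein calponin 3, was at 114 and 28.0 FPKM in control and at 13.0 and 16.0 FPKM with GLUP. Its log2 difference of -1.90 was -0.91 without control replicate 1, under 2-fold, and -2.89 without control replicate 2. None of the list genes passed the adjusted test in limma. LGALS1, which encodes galectin-1, was the most abundant of the list at 7734 and 6994 FPKM in control and at 10927 and 13235 FPKM with GLUP. Its log2 difference was 0.71 as fitted, 1.05 after centring and 0.22 with the GC trend removed.

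**Figure D4:**
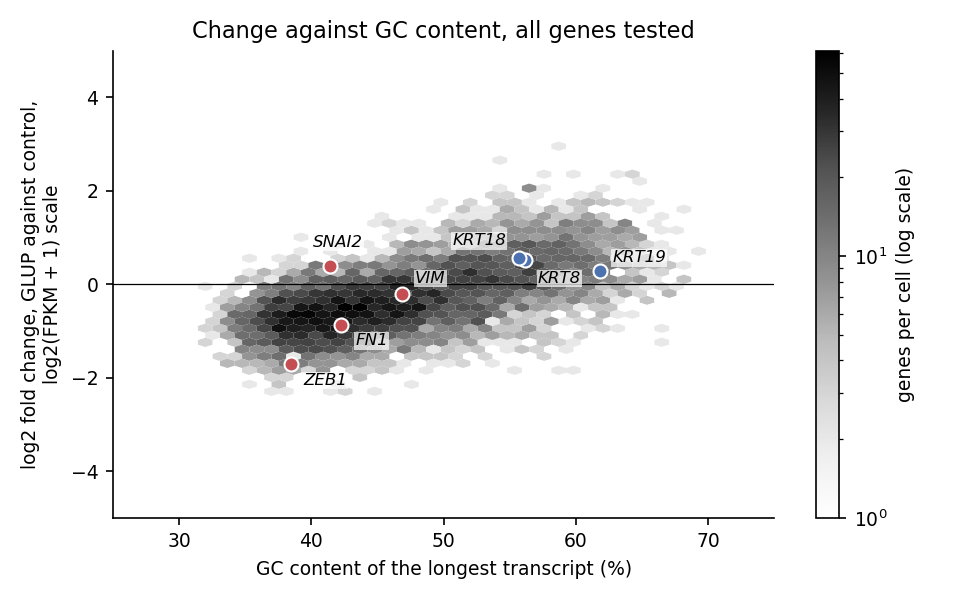
Log2 fold change (GLUP against control, log2(FPKM + 1) scale) against the GC content of the longest transcript, with the gray cells counting the genes tested (2 genes lie outside the axis) and colored points for the 7 genes. The keratins sit in the high-GC part that is mostly above 0 and ZEB1 and FN1 in the low-GC part that is mostly below it.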

How the data were processed

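RNA was measured by RNA-seq in 4 libraries of HGC-27 cells, 2 control and 2 GLUP, grouped by the treatment label. The authors deposited FPKM values per gene; their processing notes name HISAT2, Cufflinks, RSEM and GRCh38.p10 without versions or roles, whereas the identifiers carry the suffix of annotation lifted to GRCh37, and counts, depth and strandedness are not given in the sources used here. Identifiers were matched to names with GENCODE release 44 (99.55% of genes); rows of one gene were summed. Genes averaging 1 FPKM or more were fitted by limma 3.58.1 (R 4.3.3) with a mean-variance trend on log2(FPKM + 1), which understates changes of low genes, with Benjamini-Hochberg adjustment; fits were checked on simulated data. The 10 genes and the lists were chosen with earlier results of these data known. From each list, the 2 most abundant genes tested and the 2 with the largest change could be named, besides the 3 closest in pattern and genes overlapping or copying the 10. Same-numbered libraries shared only a number. Alternatives were another pseudocount, filter, scaling, GC correction, replicate block, fold, trend and leaving out each library.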

Additional observations from a re-analysis of the deposited data

How the results depend on the processing

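The FPKM files give no counts, so depth could not be weighed, and with 2 libraries a group one control library could decide a value. Of 262 recalculated values, 188 were kept, 63 moved, 6 reversed, 3 gained and 2 lost the call, and the cause was not tested. A gene's value was kept if its direction and side of the threshold held. A list median was kept if it moved by less than the replicate spread. A count of genes was kept within 1.5-fold of the main count, whatever its split by direction. The count after centring, 1224, was kept by this rule although its split turned to 796 higher and 428 lower. The 1457 genes called at an unadjusted p in limma became 890 at a mean of at least 5 FPKM, 702 with the GC trend removed, 837 with replicate block and GC trend removed, 2401 at a fold of 1.5, and 587 to 2729 leaving out single libraries; higher and lower calls were 355 and 347 with the GC trend removed and 673 and 486 after quantile normalization. The 2 adjusted calls in limma became 1 with a pseudocount of 0.1, 1 after centring, 1 after quantile normalization, 0 over all genes (1293 unadjusted), 0 at 5 FPKM (890 unadjusted), 0 with the GC trend removed (702 unadjusted), 0 without the mean-variance trend (1461 unadjusted), 16 with the replicate block and GC correction, and 4 to 2710 leaving out single libraries, where 2710 were called without control replicate 1 and 1020 without control replicate 2 and the lone library of a group was assumed to vary like the other group. With the replicate block alone 1688 genes were called unadjusted and 2 adjusted; the deviations of same-numbered libraries correlated at 0.126 and no pairing was established. Of the 10 genes, 0 were called with the GC trend removed without the block, and 1 to 3 leaving out libraries, with 3 (ZEB1, FN1 and SNAI2) without control replicate 1. KRT19 turned to -0.24 with the GC trend removed, with or without the replicate block, VIM to 0.14 after centring and 0.17 with the GC trend removed, with or without the block, and SNAI2 ranged from -0.22 to 1.01 leaving out libraries and was 1.06 with the block and GC correction, where it was the 1 gene of the 10 called. FN1 ranged from -1.35 to -0.37, and ZEB1 was -0.95 with the GC trend removed, with or without the block, uncalled. The epithelial median of 0.51 was 0.78 with a pseudocount of 0.1, 0.29 over all genes (which adds CDH1 and EPCAM), 0.85 after centring, 0.77 after quantile normalization and 0.21 with the GC trend removed, with or without the block. The mesenchymal median of -0.53 was -0.81, -0.20, -0.19, -0.39 and -0.030 in the same order, -0.20 at 5 FPKM, and -0.83 to -0.29 leaving out libraries. The median of the catenin list (-0.34) was 0.19 with the GC trend removed, 0.0043 after centring and -0.059 without control replicate 2, and that of the junction list (0.27) was 0.014 over all genes. That of the mesenchymal transcription factors (-0.25) was -0.000963 over all genes, 0.094 after centring, 0.079 after quantile normalization, -0.17 with the GC trend removed and -0.61 to 0.035 leaving out libraries. That of the matrix list (0.10) was 0.44, 0.48 and -0.23 to 0.39 under centring, quantile normalization and leaving out libraries, and that of the fibroblast markers (0.18) 0.52, 0.49 and 0.013 to 0.35. That of the surface list (0.44) was 0.036 over all genes, -0.16 at 5 FPKM, 0.79 after centring, 0.51 after quantile normalization, 0.32 with the GC trend removed and 0.20 to 0.51 leaving out libraries.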
